A study of Mus musculus with 8 samples.

Results

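The plakins are giant cytolinker proteins, and the data described here are the signals of their transcripts in a podocyte cell line and in a pulldown made from it. The 7 mouse plakin genes followed are plectin (Plec), dystonin (Dst, also Bpag1), Macf1 (also Acf7), epiplakin (Eppk1), periplakin (Ppl), desmoplakin (Dsp) and envoplakin (Evpl). All probes that the platform annotation assigns to them were taken, whatever they showed. The genes are 7 of 19406 named by that annotation, and the probes number 31 of the 46643 probes on the array, with 12 for Plec, 12 for Dst, 2 for Macf1, 2 for Evpl and 1 each for Eppk1, Ppl and Dsp. A further Macf1 probe, number 1340132, is named only in the gene table of the study. It is described beside the others and was not counted with them.

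The 8 Illumina Sentrix-6 arrays carried RNA of 4 eluates and 4 inputs. All of it came from mouse podocytes of the line MPC-5, which is conditionally immortalized and propagated at 33°C. By the labels and methods the cells stably expressed the WT1(+KTS) isoform with a modified TAP tag from a cytomegalovirus promoter, in eluates and inputs alike, and had been kept at 37°C for 14 days. An eluate is the RNA collected from IgG Sepharose, loaded with extract and washed, once TEV protease had been added, and an input is the RNA of a portion of the extract set aside. Every array came from tagged cells, so no untagged control enters the comparison, and whether the line is 1 clone is not stated. Outside these arrays, the study reports by qRT-PCR that Myh10 was enriched from cells with an empty vector as well. It states the same, without showing data, for further transcripts including Dbn1, and names no plakin among them. Each sample was labelled from 650 ng of RNA, so that a signal stands for a share of the RNA in its fraction and not for an amount per cell, and fewer cells with a transcript cannot be told apart from less of it in each cell. The podocyte label was checked against 13 markers: of 11 with a probe, 5 were bright enough to be tested, namely Synpo, Podxl, Actn4, Nes and Vim. The defining markers Nphs1 and Wt1 stayed at signals of at most 114 and 91.2 on any array, where the medians of the arrays were 64.9 to 84.6. The Wt1 probe thus did not show the stated expression of tagged WT1, and whether it covers a part of the gene that the transgene holds is not known here. Cd2ap, Ptpro, Tcf21 and Lmx1b were also too dim to be tested. The summed signal of the podocyte list was 44900 to 78100 in the eluates and 23200 to 39300 in the inputs. Of its 5 tested genes 2 were called higher, Actn4, averaging 18300 in the eluates and 3670 in the inputs, and Nes. The share called higher among all genes at their brightest tested probe was 1.08%. Synpo, Podxl and Vim had log2 fold changes of 0.81, 0.17 and 0.34 and were not called. Whether the higher sum took part in the plakin changes was not tested. The keratinocyte list, which stands for the cells that make the envelope and desmosome plakins in bulk, summed to 1370 to 1740 in the eluates and 1360 to 1700 in the inputs. The sums for endothelium were 412 to 521 in the eluates and 380 to 521 in the inputs, and those for macrophages reached at most 159 in the eluates and 160 in the inputs. The lists for proximal tubule and mesangium were bright, with sums of 2580 to 12700 and 3120 to 16000 in the eluates and 2690 to 13800 and 2940 to 15300 in the inputs, mostly from Aqp1 and Acta2. These sums differed between sets of arrays that cross the fractions: for proximal tubule they were 11800 to 13800 on eluates 1 and 4 and inputs 1 and 2, and 2580 to 2920 on the other arrays, and for mesangium 10700 to 16000 and 2940 to 3530.

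Plakins tie the filament systems of a cell to each other and to its junctions. Plectin crosslinks intermediate filaments with actin, microtubules and the membrane, while dystonin and Macf1 are spectraplakins, which carry actin-binding calponin homology domains at one end and a microtubule-binding GAS2 domain near the other. Desmoplakin anchors intermediate filaments at desmosomes, envoplakin and periplakin lie under the cornified envelope of stratified epithelia, and epiplakin consists of plakin repeats that bind intermediate filaments. Podocytes keep vimentin and microtubules in their cell body and major processes and bundled actin in their foot processes.

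The eluates held more of the transcripts of 3 plakins, Plec, Dst and Eppk1, than the inputs, and no annotated probe of Macf1, Evpl, Ppl or Dsp passed the test. Probes entered the test if 3 or more of the 4 eluate arrays gave them a signal of 100 or higher, and limma was run on log2 signals with terms for fraction and replicate number. A call is an adjusted p under 0.15, the false discovery rate (FDR) of the study, over all 13902 tested probes. Of the 31 annotated plakin probes 9 were tested, and 7 of these were called higher and 0 lower, against 1.09% of all tested probes called higher and 0.0288% called lower. The 7 comprised 2 probes of Plec, 4 of Dst and the probe of Eppk1, and each was at least 2-fold higher, as were 0.655% of all tested probes. The filter looks at the eluates alone, and 2 of the 9 probes, those of Eppk1 and Evpl, passed it only there. A filter on the mean over all 8 arrays admitted 9 plakin probes as well, 7 of them called. Over the whole array 129 probes were called with that filter, in either direction. When all 46643 probes were fitted together, without any filter, 7 of the 31 plakin probes were called higher and 0 lower, against 0.686% and 0.15% of all probes. For the 7 called probes all 4 eluates lay above all 4 inputs, which held for 4.83% of the tested probes. The calls rest on the same values, so this separation adds no support of its own.

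The count of plakin calls was also taken in other fits, with their own background. With no replicate block 7 plakin probes were called higher, against 3.58% of all tested probes, and with array sets as the block 7, against 14.4%. The array sets, described further on, were taken from the same tested values. It was 6 without replicate 1 (background 0.475%), 7 without replicate 2 (2.56%), 6 without replicate 3 (0.381%) and 7 without replicate 4 (2.84%). With no moderation of the variance in limma it was 0, as over all tested probes, though 7 plakin probes and 1303 of all tested probes had an unadjusted p under 0.05 there.

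**Figure D1:**
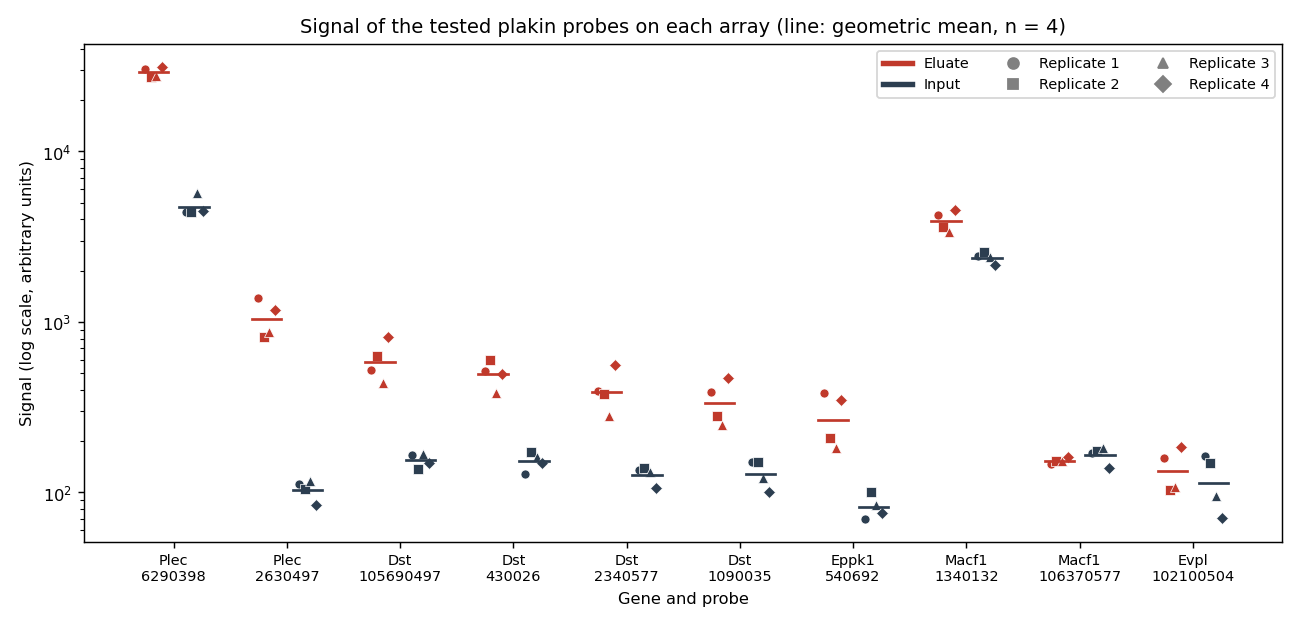
Signal of the 10 tested plakin probes, including the Macf1 probe 1340132, on each array (log axis, arbitrary units), with eluates left of inputs, a marker shape for each replicate number and a line at the geometric mean of 4 arrays. Eluates and inputs are separate for Plec, Dst, Eppk1 and Macf1 probe 1340132, and overlap for Macf1 probe 106370577 and for Evpl.

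The Plec probes had the largest log2 fold changes of the family as deposited. The bright probe 6290398 read 30390, 27202, 27572 and 31475 in eluates 1 to 4, against 4436, 4396, 5737 and 4457 in inputs 1 to 4. All eluates were thus far above all inputs, and input 3 stood above the other inputs. The log2 fold change was 2.62 (95% confidence interval 2.24 to 3.00, adjusted p = 0.000105), or 6.16-fold. The brightest probe of an array read between 41400 and 48200, above the Plec eluates, and saturation was not tested.

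The other bright reading of Plec came from a probe that was dim in the inputs. Probe 2630497 read 1389, 822, 869 and 1177 in the eluates, against 112, 105, 116 and 84.0 in the inputs. The eluates were again apart from the inputs, with eluates 1 and 4 above eluates 2 and 3. Its log2 fold change was 3.33 (95% confidence interval 2.88 to 3.78, adjusted p = 0.000105), or 10.1-fold, rank 8 among the 13902 tested probes. The ratio of the bright to the dim Plec probe changed between the fractions, with a log2 difference of -0.71 (standard error 0.17) between their fold changes. In an exact two-sided permutation test of the 4 eluates against the 4 inputs this gave p = 0.0286, the smallest value 4 against 4 arrays allow, and 0.114 after Benjamini-Hochberg adjustment over 8 pairs of probes of the same gene. After subtraction of a background from each array, chosen for these pairs after seeing the data, the difference was -1.71 (95% confidence interval -2.13 to -1.28), and the log2 fold changes were 4.34 at probe 2630497 and 2.64 at probe 6290398, so that the size of the change at the dimmer probe depended on the background. Both probes gave the same direction.

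The other 10 Plec probes were dim in both fractions. Their signals ran from 57.1 to 121 over all arrays, and their log2 differences between eluates and inputs from -0.10 to 0.23. Of these probes 9 are annotated to other RefSeq transcripts of Plec than the bright ones, which are both annotated to NM_011117. Plectin transcripts are known to differ mainly in their first exons, and the sequences that would place the probes on exons were not used here. The remaining one, probe 6520292, is annotated to NM_011117 as well and read 80.6, 90.0, 77.9 and 91.8 in the eluates, against 91.4, 95.2, 83.7 and 77.6 in the inputs. The same transcript record thus holds both called Plec probes and a dim one, and an annotation to it did not settle what a probe read.

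Dystonin was higher in the eluates on 4 probes. Probe 105690497 read 524, 629, 440 and 813 in the eluates, against 165, 137, 169 and 148 in the inputs. No eluate came near an input. Its log2 fold change was 1.93 (95% confidence interval 1.46 to 2.39, adjusted p = 0.00174), or 3.80-fold. Probe 430026 read 518, 595, 383 and 497 in the eluates, against 129, 172, 162 and 149 in the inputs, a log2 fold change of 1.69 (adjusted p = 0.00157). Probe 2340577 read 393, 378, 282 and 558 in the eluates, against 135, 140, 131 and 106 in the inputs, a log2 fold change of 1.62 (adjusted p = 0.00853). On all of these eluate 3 was the lowest of the eluates. The smallest change was that of probe 1090035, with 387, 282, 250 and 470 in the eluates against 150, 151, 122 and 100 in the inputs. Its log2 fold change of 1.38 (95% confidence interval 0.87 to 1.90, adjusted p = 0.0294) was not past the cutoff without replicate 1 (adjusted p = 0.209) or without replicate 3 (adjusted p = 0.244).

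The 4 Dst probes cover 3 transcript records, and the exact test did not separate their changes. Probes 430026 and 2340577 are annotated to NM_133833, probe 1090035 to NM_010081 and probe 105690497 to the cDNA BC033468. Differences between their log2 fold changes ran from 0.07 to 0.54 over 6 pairs, with exact two-sided permutation p-values from 0.0571 to 0.714. The widest, between probes 105690497 and 1090035, had a 95% confidence interval from 0.01 to 1.08, so a difference of up to that size is not excluded. The other 8 Dst probes stayed between signals of 46.2 and 103 on all arrays, with log2 differences from -0.16 to 0.15. They include 3 further probes annotated to NM_133833, another to NM_010081 and both probes of NM_134448, so that both RefSeq records with a called Dst probe also have a dim one. Dystonin is made as neuronal, muscle and epithelial forms of very different size, and which form carries the signal cannot be read from these annotations.

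**Figure D2:**
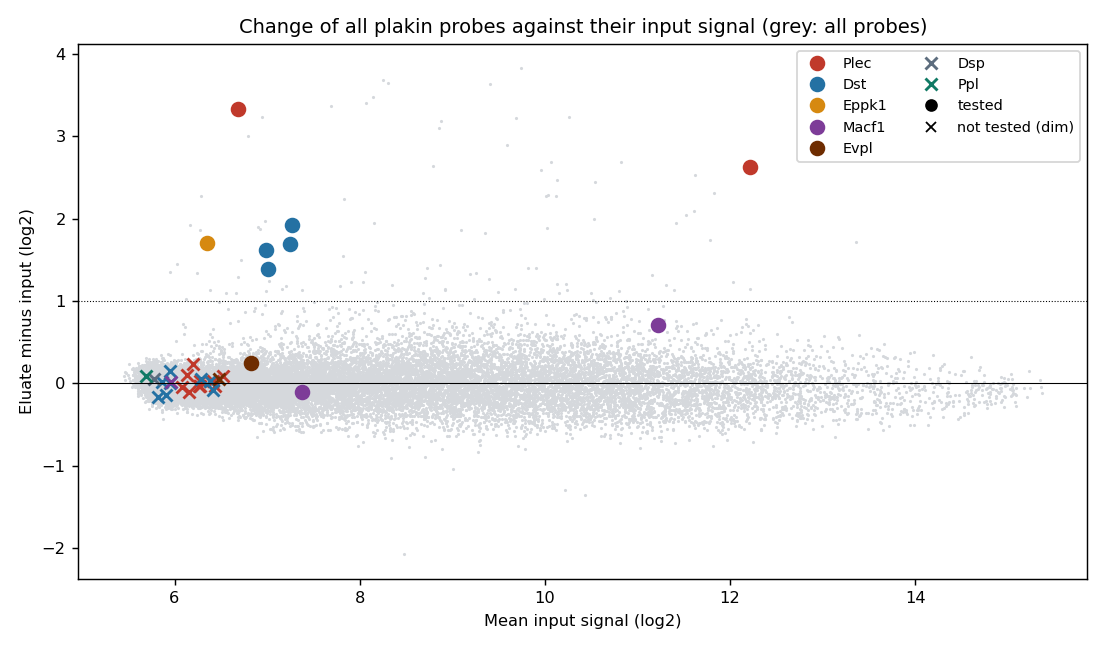
Eluate minus input (log2) of all 32 plakin probes against their mean input signal (log2), with circles for tested and crosses for dim probes; grey dots are all other probes and the dotted line marks a 2-fold increase. The crosses sit between -0.16 and 0.23 at the dim end, and the Plec, Dst and Eppk1 circles lie above the 2-fold line, as do other probes.

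Epiplakin was higher in the eluates on its single probe. Probe 540692 read 382, 209, 182 and 351 in the eluates, against 69.9, 100, 84.5 and 75.9 in the inputs. Eluates 1 and 4 were high and eluates 2 and 3 lower, yet all were above the inputs. The log2 fold change was 1.71 (95% confidence interval 1.13 to 2.28, adjusted p = 0.0170), or 3.27-fold. In the inputs the probe lay between the 22.6 and the 65.2 percentile of its array, where dim probes crowd, and after subtraction of a background from each array its log2 fold change was 2.93 (adjusted p = 0.0124). In the RefSeq annotation of GRCm38.p6, used here for the order of genes alone, Eppk1 and Plec are near neighbours on one chromosome with 4 annotated genes between them. Of these genes BC024139 has a probe, and it was dim in both fractions, with a mean signal of 61.7 in the eluates and 57.2 in the inputs.

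Macf1, the other spectraplakin, gave different readings on different probes. The annotated probe 106370577 read 147, 153, 154 and 162 in the eluates, against 170, 175, 183 and 139 in the inputs. The fractions overlapped, through input 4, and the log2 fold change was -0.11 (95% confidence interval -0.49 to 0.26, adjusted p = 0.931). The annotated probe 106770113 stayed between 53.3 and 73.3. The bright probe 1340132 read 4216, 3618, 3354 and 4564 in the eluates, against 2433, 2583, 2397 and 2150 in the inputs. Here all eluates lay above all inputs and their spread was small, but the log2 fold change of 0.71 (95% confidence interval 0.32 to 1.10), or 1.64-fold, had an adjusted p of 0.180 in limma and was not a call. It was past the cutoff with no replicate block (adjusted p = 0.0315), after quantile normalization (adjusted p = 0.0378) and without replicate 2 or replicate 4 (adjusted p = 0.0742 and 0.107). With the array sets described further on as a block the adjusted p in limma was 1.73e-05. Those sets were taken from the same tested values, so that p is no separate support. The p-values of that fit and of the fit without replicate 2 may be too small. The difference between the changes of probes 1340132 and 106370577 was 0.82 on the log2 scale (95% confidence interval 0.56 to 1.09, exact two-sided permutation p = 0.0286, 0.114 after adjustment over the 8 probe pairs). Both intervals of Macf1 end near or below a 2-fold increase, under those of both Plec probes.

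Probes for the plakins of desmosomes and of the cornified envelope were dim. The Dsp probe read 57.8, 51.6, 51.5 and 69.2 in the eluates, against 63.5, 57.0, 51.9 and 48.9 in the inputs. The Ppl probe read 52.5, 52.2, 53.9 and 62.8 in the eluates, against 62.0, 60.3, 50.1 and 38.4 in the inputs. Both genes were below the median signal of the array on every array, in eluates and inputs alike. They were not tested, and a small increase could be missed at this brightness. Of the 2 Evpl probes, 3140041 read from 78.2 to 109 over all arrays and was not tested. The tested one, 102100504, read 160, 103, 107 and 184 in the eluates, against 164, 149, 95.4 and 71.1 in the inputs. High and low arrays occurred in both fractions, and the log2 fold change was 0.24 (95% confidence interval -0.37 to 0.86, adjusted p = 0.881).

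The arrays fell into sets that cross the fractions, and the plakin changes held within each. The first principal component of the tested probes, with 56.7% of the variance, separated eluates 1 and 4 and inputs 1 and 2 from eluates 2 and 3 and inputs 3 and 4. What these sets stand for is not stated. The log2 fold change of Plec was 2.81 in the first set and 2.44 in the other at probe 6290398, and 3.56 and 3.10 at probe 2630497. For Dst probe 105690497 it was 2.12 and 1.74, for Macf1 probe 1340132 0.81 and 0.62, and for Eppk1 2.13 and 1.28, so that epiplakin had the widest gap between the sets. With 2 eluates and 2 inputs in each set, the difference between sets was not tested. Evpl probe 102100504 followed the sets and not the fractions, since its signals of 149 to 184 were all in the first set and those of 71.1 to 107 all in the other.

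**Figure D3:**
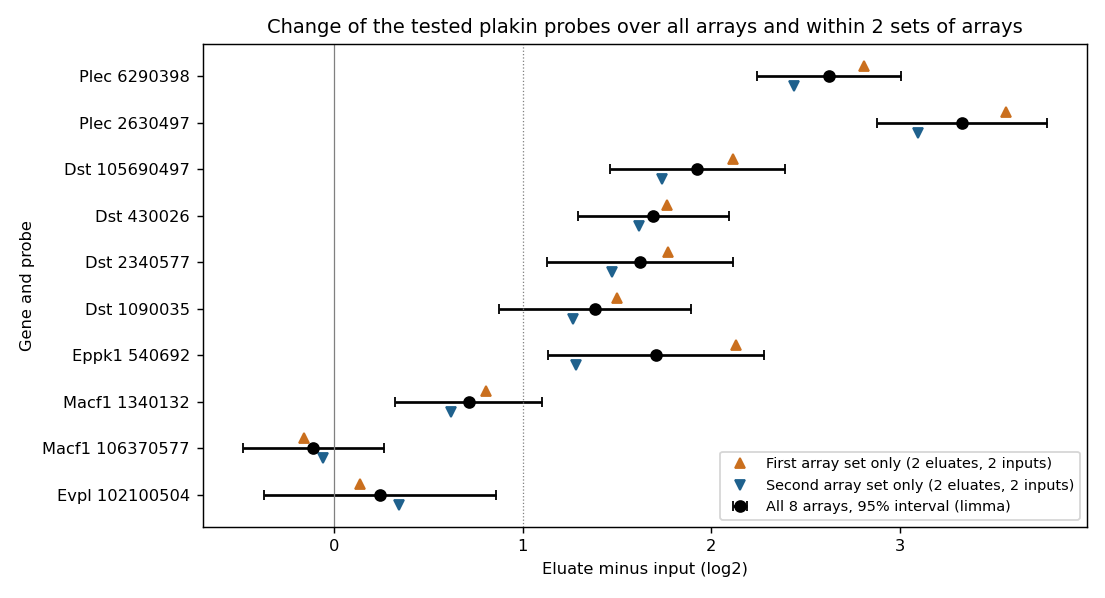
Eluate minus input (log2) of the 10 tested plakin probes over all 8 arrays (black, with the 95% interval of the limma fit) and within each of the 2 array sets (triangles, 2 eluates and 2 inputs each). The Plec, Dst and Eppk1 probes lie above 1 in both sets, whereas Macf1 and Evpl lie below 1.

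Whether plakins differed in their increase was tested within arrays, by the log2 ratio of the brightest annotated tested probes of 2 genes, for the 10 pairs among Plec, Dst, Macf1, Eppk1 and Evpl. The probes of Eppk1 and Evpl passed the filter in the eluates and not in the inputs. Pairs with Eppk1 thus hold a gene admitted by the fraction where it was high, and add no support to its rise. A p of 0.0286 was reached by 8 pairs, the smallest an exact two-sided permutation test of 4 against 4 arrays allows, which is 0.0357 after Benjamini-Hochberg adjustment over the pairs. The increase of Plec exceeded that of Macf1 by 2.73 (95% confidence interval 2.48 to 2.99) and that of Evpl by 2.38 (standard error 0.36) on the log2 scale. Dst exceeded Macf1 by 2.04 (1.56 to 2.51) and Eppk1 exceeded Macf1, since Macf1 minus Eppk1 was -1.82 (-2.53 to -1.11). With Macf1 probe 1340132 in place of the annotated one, Plec and Dst still exceeded Macf1, by 1.91 (1.61 to 2.21) and 1.21 (0.81 to 1.62). Dst and Eppk1 were not separated, with a difference of 0.22 (-0.49 to 0.93, exact permutation p = 0.457), nor were Macf1 and Evpl, with -0.35 (-1.12 to 0.41, exact permutation p = 0.343). With probe 1340132 Macf1 minus Eppk1 was smaller, at -0.99 (-1.48 to -0.515). Macf1 minus Evpl then was 0.47 (-0.17 to 1.11), so its sign depended on the Macf1 probe. Within the called genes, Plec exceeded Dst by 0.70 (0.25 to 1.14) and Eppk1 by 0.92 (0.28 to 1.55) as deposited. These last gaps were lost when a background was subtracted, a choice made after seeing the data, with 0.21 (-0.28 to 0.70) for Dst and -0.29 (-1.30 to 0.72) for Eppk1. The order of Plec above Macf1 and Evpl did not depend on it.

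The 22 plakin probes that were not tested are those dim in the eluates, so a probe that rose past the filter there could not be among them. Whether they were empty was not tested. Their log2 differences between the fractions had a median of 0.03, against -0.02 over all 32741 probes not tested. Between arrays of the same number, though, they moved together: in number 4 all 22 were higher in the eluate than in the input, with a median of 0.46, against 3, 2 and 7 of 22 in numbers 1 to 3. All dim probes did likewise, with 97.2% higher in eluate 4 than in input 4. Input 4 had the lowest median signal of all arrays, 64.9, and eluate 4 the highest, 84.6. Without number 4 the log2 fold changes of the 7 called probes ran from 1.10 at Dst probe 1090035 to 3.17 at Plec probe 2630497, and all 7 were still called.

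Genes whose products bind plakins, or are built like them, were followed in 8 lists of 91 genes, 48 of which had a tested annotated probe. Of these 48 genes, 8 were called higher and 0 lower at the brightest tested probe of each, against 1.08% and 0.0115% of all 8674 genes taken the same way, and the median log2 fold change of all tested probes was -0.01. The lists were chosen with earlier results of these data known, so these counts describe the lists and test nothing. The calls fell largely among proteins built from spectrin repeats, which also form the rod of the spectraplakins and, in plectin, lie in the plakin domain. Of 6 tested genes of that list, 5 rose, with a median of 2.09: utrophin (Utrn), which ties actin to the membrane, by 3.37 (adjusted p = 0.000218), beta II spectrin (Sptbn1) by 3.11 (adjusted p = 0.000144), the actin crosslinkers Actn4 by 2.32 (adjusted p = 0.000505) and Actn1 by 1.86 (adjusted p = 0.00592), and Trio by 0.90 (adjusted p = 0.0408). The dystrophin gene Dmd had -0.03 (standard error 0.53, adjusted p = 0.999). Of the GAS2 domain relatives, Gas2l3 rose by 1.26 (adjusted p = 0.00666) and Gas2l1 had 0.14 (adjusted p = 0.913).

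Among the binding partners, calls came from the lists of intermediate filaments and of the nuclear envelope, and the share of genes called higher among all genes was 1.08%. Of 8 tested intermediate filament genes 1 was called, nestin (Nes), with 2.29 (adjusted p = 0.000901), its signal averaging 5380 in the eluates and 1060 in the inputs. Vimentin (Vim), the filament protein of mesenchymal cells, had 24200 in the eluates and 19100 in the inputs, a log2 fold change of 0.34 (adjusted p = 0.678), and the lamin gene Lmna had 0.32 (adjusted p = 0.626). Synemin (Synm) had 1.55 with a standard error of 0.46 (adjusted p = 0.298). Of 7 tested genes of the nuclear envelope LINC complex 1 rose, Syne3, which encodes nesprin-3, the nesprin that binds plectin, with 0.99 (adjusted p = 0.0248), its signal averaging 579 in the eluates and 291 in the inputs. Its partner Sun2 had 0.71 (adjusted p = 0.307), with all eluates above all inputs, and Sun1 had 0.23 (adjusted p = 0.830). Of 11 tested genes for proteins at microtubule ends, to which the spectraplakins bind, none was called in limma, with a median of 0.22; Mapre1, which encodes the end-binding protein EB1, had -0.14 (adjusted p = 0.894) and Clip1 had 0.31 (adjusted p = 0.647). None of 7 desmosome genes was called, with a median of 0.07 and plakoglobin (Jup) at 0.64 (adjusted p = 0.479), nor any of 3 hemidesmosome genes, with integrin alpha 6 (Itga6) at 0.22 (adjusted p = 0.854), nor any of 4 genes of the cornified envelope, with a median of 0.05.

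**Figure D4:**
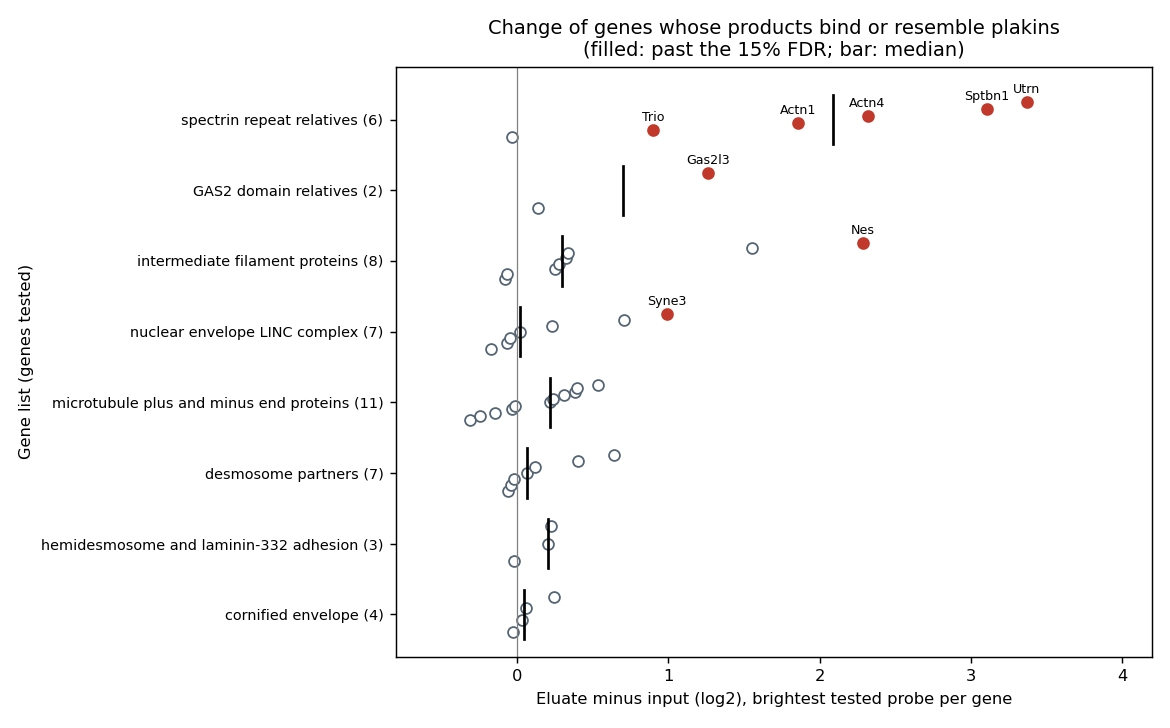
Eluate minus input (log2) at the brightest tested probe of each gene in 8 lists of plakin relatives and partners, the number of tested genes in brackets; filled points passed the 15% FDR and bars are list medians. Filled points are 5 spectrin repeat genes, Gas2l3, Nes and Syne3, and the lists of microtubule ends, desmosomes, hemidesmosomes and the cornified envelope hold none.

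Over the 8 arrays, the genes whose log2 signal followed the bright Plec probe most closely, among 8669 other genes at their brightest tested probe, were Ppp1r9a (Pearson r = 0.997), Svil (0.995), Gas2l3 (0.990), Myh9 (0.989) and 2900026A02Rik (0.987). All 5 were called higher in the eluates, with log2 fold changes from 1.26 to 3.63, and since the arrays share the split into eluates and inputs, r rests mostly on that split. The nearest to the annotated Macf1 probe were Gm960 (0.947), Zfp202 (0.944), Slc2a4rg-ps (0.938), Klhdc1 (0.923) and Limd1 (0.915), none of which was called, with log2 fold changes from -0.15 to -0.05. The control genes Gapdh and Actb had log2 fold changes of 0.11 (standard error 0.17, adjusted p = 0.927) and -0.02 (standard error 0.21, adjusted p = 0.998), at mean signals of 36437 and 26588 in the eluates and 33692 and 26792 in the inputs.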

How the data were processed

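RNA of 4 eluates and 4 inputs was hybridized to Illumina Sentrix-6 mouse arrays. BeadStudio and Partek 6.4 stand in the submitters' processing notes. The authors deposited the log2 of their signal for 46643 probes. On the linear scale, 3528 averages of them came within 0.00308% of the average signals listed by the study, which settles scale and direction. How arrays were normalized to each other was not given in the sources used here. A further 24 columns in other deposited tables match no sample label and were not used, so detection calls were not analysed here.

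Of the probes, 32794 have 1 gene symbol in the platform annotation, 55 have several and 13794 have none. Symbols were updated through Entrez IDs. The fit used lmFit and eBayes of limma 3.58.1 (R 4.3.3), with Benjamini-Hochberg adjustment. It was tried on simulated data in which arrays of the same number shared an effect. Deviations of the real same-numbered arrays correlated from -0.765 to 0.737, so the simulation cannot show how the fit behaves here. Without a filter limma gave all probes a common variance, so only counts are taken from that fit. Very small adjusted p-values arose in other limma fits too. For Plec probe 6290398 they were 3.94e-23 without replicate 2 and 1.51e-20 with array sets as the block, against 0.000105 in the main fit. Whether those fits took a common variance was not checked, so their p-values may be too small and their counts too high. Ratios within arrays were tested with scipy 1.17.1 in Python 3.11.15, and their intervals are from pooled variances at 95%. No gene list entered a set test. The members, lists and named genes (all plakin probes, up to 4 bright or called genes per list, the 5 genes most like Plec and Macf1, Gapdh and Actb) were chosen with earlier results of these data known. The alternatives were no replicate block, array sets as a block, quantile normalization, other filters, background subtraction (the 5th percentile of each array, floor 16), no moderation, an FDR of 0.05 and leaving out each replicate number. Arrays give no counts, so their number, 4 in each fraction, limits the precision. No label says that the pulldowns came from separate cultures, so the spread behind the p-values is that between these arrays and may be technical.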

Additional observations from a re-analysis of the deposited data

Results flagged for a closer look

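In 3 of 64 groups of 4 arrays, 1 array stood apart from the other 3 by more than Dixon's 95% critical value for its gap over the range; chance gives about 1 in 20 groups. For Plec probe 6290398, input 3 was the highest of the inputs, at 5737 against 4396 to 4457, with a gap of 0.949 of the range; without replicate 3 the log2 fold change was 2.74 and still a call. For Dst probe 3170068, which was not tested, input 4 was the lowest of the inputs with a gap of 0.842, at 71.6 against 89.4 to 93.2. For Dst probe 100940609, also not tested, input 4 was again lowest with a gap of 0.873, at 48.5 against 58.4 to 60.0.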

How the results depend on the processing

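The number of called plakin probes was 7 with no replicate block, with array sets as the block, with quantile normalization, with either other filter, with background subtraction and at an FDR of 0.05, and 6 to 7 when a replicate number was left out. With no moderation of the variance it was 0, as was the number over all tested probes, while 7 plakin probes and 1303 of all probes had an unadjusted p under 0.05. The number of all tested probes past the FDR, 156, moved to 832 with no replicate block, 4124 with array sets as the block, 813 with quantile normalization, 390 with no filter, 84 at an FDR of 0.05, and 53 to 1474 when a replicate number was left out. It was 129 with a filter on the mean signal and 170 with background subtraction. Correlations of deviations between same-numbered eluates and inputs ran from -0.765 to 0.737. Eluate and input shared an array set for numbers 1 and 3 and lay in different sets for numbers 2 and 4. The study compared each pulldown with an input processed alongside it, and whether the numbers give those pairs is not stated. The main fit, with its adjusted p-values and intervals, uses the number as a block. The change of Evpl probe 102100504 was -0.13 without replicate 4, and leaving out each number in turn gave -0.13 to 0.50. Background subtraction, chosen for the differences between genes after seeing the data, turned Plec minus Eppk1 to -0.29 and Dst minus Eppk1 to -0.50, and the mean over all tested probes turned Dst minus Eppk1 to -0.051, none of them past the test; the cause was not tested. Plec minus Dst also lost its call under background subtraction. Leaving out each replicate number kept the sign of every difference between genes except Dst minus Eppk1, which was -0.086 without replicate 2. No exact p was taken for 3 against 3 arrays. Background subtraction raised the log2 fold changes of Eppk1 to 2.93, of Plec probe 2630497 to 4.34 and of the 4 Dst probes to 1.93 to 2.43, so the folds of probes dim in the inputs depend on the background taken.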
